A study of Rattus norvegicus with 2 samples.

Results

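The genes described here encode enzymes that make superoxide or hydrogen peroxide as a product, namely the NADPH oxidases with their subunits, the monoamine oxidases, aldehyde oxidase and xanthine dehydrogenase. They were chosen by name as Nox1, Nox4, Cybb, Cyba, Ncf1, Ncf4, Maoa, Maob, Aox1 and Xdh, by a rule that uses the symbol and no measured value. The list was drawn up with earlier results of these data known, and each gene was read by 1 probe set. All 10 were found among the 15037 genes with a named probe set. The RNA came from the basilar artery of male Sprague-Dawley rats given as 13 months old in the labels, perfused and dissected 4 weeks after surgery. In the Ligation group both common carotid arteries were tied, and in the Sham group they were exposed and not tied. Equal amounts of RNA from 4 rats were pooled in each group and hybridized to 1 Clariom S rat array, so each group is 1 pool and 1 array. A difference between them has no replicate error and no test, and differences between rats within a pool cannot be seen. The tissue was the whole artery as dissected, so fewer cells of a type and less RNA per cell cannot be told apart.

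NADPH oxidases pass electrons from NADPH across a membrane to oxygen. Nox1 and Cybb, the catalytic chain also called Nox2, release superoxide, and Nox4 releases mainly hydrogen peroxide. All 3 need Cyba, the small membrane partner also called p22-phox. In phagocytes the Cybb-Cyba pair stays silent until cytosolic subunits, among them Ncf1 (p47-phox) and Ncf4 (p40-phox), reach the membrane, whereas Nox4 is active once it is made. In arteries, Nox1 and Nox4 are known from smooth muscle, Nox4 also from endothelium and fibroblasts, and Cybb from macrophages, endothelium and the adventitia. Monoamine oxidases sit in the outer mitochondrial membrane and break down noradrenaline, serotonin and dopamine, with an aldehyde and hydrogen peroxide as products. Aox1 and Xdh are related enzymes that hold a molybdenum cofactor. Xdh makes uric acid in the last steps of purine breakdown and, in its oxidase form, passes electrons to oxygen.

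As shown by the plot of signals by array, 8 of the 10 genes had a higher signal after ligation and 2, Nox1 and Xdh, had a lower one. Over all named genes the signal was higher after ligation in 48.7%. Nox4, Aox1, Maob and Ncf4 were over 2-fold higher, that is 4 of 10, where 4.04% of all named genes were. None of the 10 was under 0.5-fold, where 2.97% of all named genes were. The median log2 difference of the 10 was 0.88, and that of all named genes was -0.01. The scaling bears on these counts. Centred on housekeeping genes, 368 named genes were past 2-fold upward and 777 downward, where the deposited values gave 607 and 447, and Nox4 alone of the 10 genes was over 2-fold higher. The signs of the 10 differences were the same with each of 4 other scalings, by array median, quantiles, housekeeping genes or a lowess trend. The signals were not equally bright, and how far each stood above background differs from gene to gene.

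**Figure D1:**
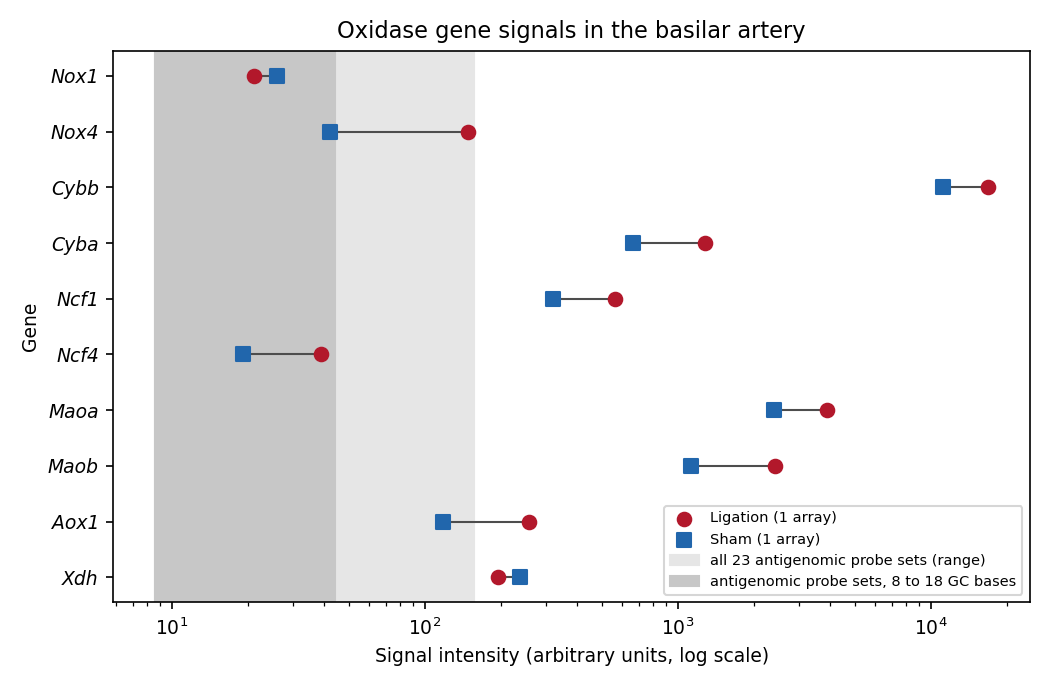
Signal intensity of the 10 genes in the Ligation array (circles) and the Sham array (squares), 1 array each, on a log axis, with a line joining the 2 arrays of a gene. The light band spans the signals of all 23 antigenomic probe sets, and the dark band those with 8 to 18 G and C bases. Nox1, Nox4 and Ncf4 lie inside the light band on both arrays, Aox1 in the Sham array alone, and the other 6 genes lie above it.

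Background was read from 23 antigenomic probe sets, whose probes match no rat transcript and hold from 3 to 25 G and C bases. Their signals ran from 8.58 to 157 after ligation and from 9.14 to 151 after sham surgery, and the level depended on the bases. The 11 sets with 8 to 18 such bases gave 8.58 to 35.7 after ligation and 9.14 to 44.2 after sham surgery. The 12 sets outside that range gave 109 or more on both arrays. The base composition of the probes of each gene was not used here, so a signal between these levels cannot be placed above or below its own background. In what follows, within background means no brighter than the brightest of the 23 sets on that array. The log2 differences of the antigenomic sets themselves ran from -0.31 to 0.06. In the 11 sets with 8 to 18 bases they ran from -0.31 to -0.09, all lower after ligation. In the other 12 they ran from -0.11 to 0.06. As a further measure of the spread between these arrays, 12 of 15 housekeeping genes had a named probe set, and their differences ran from -0.50 for Pgk1 to 0.83 for Tfrc. Of the 10 oxidase genes, 5 had a difference above that of Tfrc (Cyba, Ncf4, Maob, Aox1 and Nox4) and 5 lay inside the range. Over all named genes the share above Tfrc lay between 4.56%, the share above Cyba (0.95), and 6.86%, the share above Ncf1 (0.81). All 12 housekeeping genes were above background on both arrays, so their range does not give the spread of dim signals such as those of Ncf4 and Nox4.

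**Figure D2:**
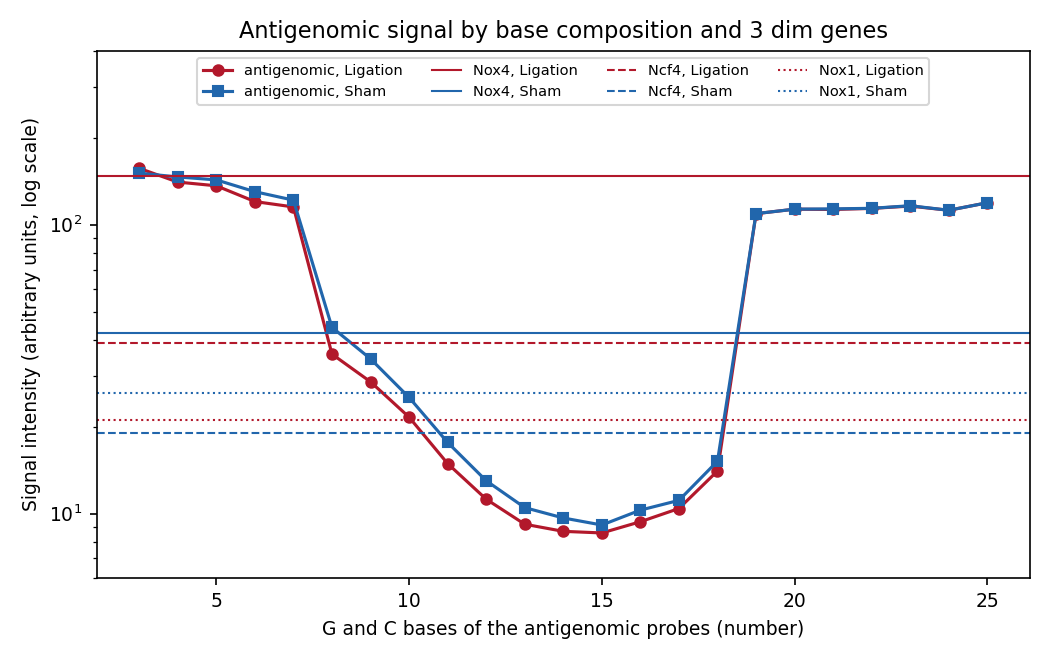
Signal intensity (log axis) of the antigenomic probe sets against the number of G and C bases of their probes, for the Ligation and Sham arrays, with horizontal lines at the signals of Nox4, Ncf4 and Nox1. The sets with 8 to 18 bases stand lowest, the Nox4 line of the Ligation array at 148 passes above all of these, and the Nox4 line of the Sham array at 42.2 passes above 10 of the 11.

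Promoter sequences are shown for the membrane pair Cybb and Cyba, for Nox4 and for the neighbouring genes Maoa and Maob, so that their composition can be compared. Of the 10 genes, 9 had an entry in the promoter table of RefSeq for assembly GRCr8, which holds 250 bases before the start of a gene and 50 after it. Ncf4 is named only. Each of 33469 promoters was searched on both strands for 5 short motifs, the TATA box (TATAAA), the CCAAT box (CCAAT), the GC box of Sp1 (GGGCGG), the core of the antioxidant response element (TGACNNNGC) and the PU box of myeloid genes (GAGGAA). Capitals in the sequences mark every match on either strand, and no match overlapped one of another motif. A match is a run of letters and no proof of a bound factor. A GC box was present in 6 of the 9 oxidase promoters and in 33.1% of all promoters, a CCAAT box in 4 of 9 and in 37.5%, a PU box in 2 of 9 and in 27.6%, an antioxidant core in 1 of 9 and in 12.1%, and a TATA box in 0 of 9 and in 14.2%. The 6 with a GC box were Nox4, Cyba, Ncf1, Maoa, Maob and Aox1, and the 3 without were Nox1, Cybb and Xdh.

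Cybb, the catalytic chain of the phagocyte oxidase, had a signal of 16829 after ligation and 11142 after sham surgery, 1.51-fold higher (log2 difference 0.59). Both signals were brighter than all 23 antigenomic sets, so Cybb was read above background in the artery with and without ligation, and 12.0% of named genes had a larger difference. Cyba, the partner that holds the catalytic chain in the membrane, had a signal of 1278 after ligation and 661 after sham surgery. Its difference of 0.95, or 1.93-fold, was just short of 2-fold, and 4.56% of named genes had a larger one. The promoters of this membrane pair differed in composition. That of Cybb had 35.7% G and C, with 3 CpG, 2 CCAAT boxes and a PU box, and 5.29% of all promoters had less G and C. That of Cyba had 61.0%, with 10 CpG and 2 GC boxes.
Cybb promoter, chrX:16065016-16065315, minus strand: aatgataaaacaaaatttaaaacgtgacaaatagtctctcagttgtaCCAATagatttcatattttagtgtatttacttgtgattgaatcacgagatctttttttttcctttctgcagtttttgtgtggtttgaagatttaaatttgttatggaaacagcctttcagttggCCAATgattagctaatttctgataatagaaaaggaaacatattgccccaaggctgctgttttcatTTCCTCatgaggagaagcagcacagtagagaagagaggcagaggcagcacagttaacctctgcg
Cyba promoter, chr19:67404165-67404464, minus strand: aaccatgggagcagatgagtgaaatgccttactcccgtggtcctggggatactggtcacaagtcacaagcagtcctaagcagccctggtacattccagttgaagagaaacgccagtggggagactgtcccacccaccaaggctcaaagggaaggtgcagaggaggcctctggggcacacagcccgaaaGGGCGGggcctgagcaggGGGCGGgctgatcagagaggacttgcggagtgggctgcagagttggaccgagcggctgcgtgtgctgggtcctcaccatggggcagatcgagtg

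Ncf1, the organizer subunit that carries the cytosolic complex to the membrane, had a signal of 564 after ligation and 321 after sham surgery. This is 1.76-fold higher (log2 difference 0.81), above background on both arrays. Ncf4, which binds a membrane lipid and sustains the activity in phagosomes, had 38.9 after ligation and 19.1 after sham surgery. Its fold was 2.04, and both signals were within background. Against the 11 antigenomic sets of 8 to 18 bases alone, the Ligation signal of Ncf4 was brighter than 11 and the Sham signal was brighter than 8. Among the named genes in the same 10% band of mean signal, 1.40% were over 2-fold higher. The differences of the 4 phagocyte oxidase genes thus reached from 0.59 to 1.03, all in the same direction, with 1 of the 4 over 2-fold. With a single array per group the order among the 4 has no check.

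Nox4, the oxidase that yields hydrogen peroxide without an activating complex, had the largest difference of the 10 genes as deposited. Its signal was 148 after ligation and 42.2 after sham surgery, 3.51-fold higher (log2 difference 1.81). Of the 15037 named genes, 86 (0.57%) had a larger difference, and in the same 10% band of mean signal 5.78% were over 2-fold higher. Both Nox4 signals were within background. The Ligation signal was brighter than 22 of the 23 antigenomic sets, and the Sham signal was brighter than 10. Adding 64 to each signal, which damps differences between dim signals, lowered the log2 difference to 0.997 and brought it just under 2-fold, with Maob then highest at 1.07. With the median antigenomic signal subtracted Nox4 was at 1.27 and Aox1 highest at 3.23. The Sham value of Nox4 was then at the floor of 16, so its 1.27 depends on that floor. The promoter of Nox4 was rich in G and C, with 73.0%, 31 CpG and 2 GC boxes, and 95.1% of all promoters had less.
Nox4 promoter, chr1:150313639-150313938, plus strand: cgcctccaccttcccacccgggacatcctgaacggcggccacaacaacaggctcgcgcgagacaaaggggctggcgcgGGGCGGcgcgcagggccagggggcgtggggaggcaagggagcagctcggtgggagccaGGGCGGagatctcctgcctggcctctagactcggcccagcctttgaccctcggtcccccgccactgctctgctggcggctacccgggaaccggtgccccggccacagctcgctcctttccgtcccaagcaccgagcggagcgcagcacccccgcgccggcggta
Nox1, the superoxide-forming oxidase known from colon and vascular smooth muscle, had 21.1 after ligation and 26.1 after sham surgery. Its log2 difference was -0.31, and both signals were within background, so Nox1 was not well above background in either pool. The antigenomic sets of 8 to 18 bases, all lower after ligation, reached -0.31 as well. Of the 3 catalytic chains, Cybb alone was above background.

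Of other genes of the NADPH oxidase system, none was past 2-fold. Of 15 listed, 10 had a named probe set. Their median log2 difference was -0.20, with 3 above 0 and 7 below, and 6 were within background on both arrays. The 4 above background were 2 above 0 (Rac1 and Rac2) and 2 below (Cybc1 and Sh3pxd2a). Among 10 equal bands of named genes by mean signal, the share above 0 rose from 34.7% in the dimmest to 53.8% in band 5. The dim ones are thus not all read against the same share. Rac1, the small GTPase that activates the Nox1 and Cybb oxidases, had a signal of 93735 after ligation and 87719 after sham surgery, a difference of 0.10. Rac2, its counterpart in blood cells, had 181 after ligation and 156 after sham surgery (0.22). Cybc1, the chaperone that lets the Cybb-Cyba pair mature, had 745 after ligation and 948 after sham surgery (-0.35). The lowest value was that of Sh3pxd2a, which encodes the scaffold Tks5, a relative of the organizer subunits, with 1945 after ligation and 3351 after sham surgery (-0.79). Nox3, Duox1, Duox2, Duoxa1, Duoxa2 and Noxa1 were within background on both arrays.

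Both monoamine oxidases were read well above background on both arrays and were higher after ligation. Maob, the form that prefers phenylethylamine and is abundant in astrocytes and serotonin neurons, had a signal of 2430 after ligation and 1124 after sham surgery. This is 2.16-fold higher (log2 difference 1.11), and 2.92% of named genes had a larger difference. Maoa, the form that prefers serotonin and noradrenaline, had 3885 after ligation and 2398 after sham surgery, 1.62-fold higher (0.70). The difference of Maoa lay inside the range of the housekeeping genes and that of Maob outside it. The genes are neighbours on chromosome X, and their promoters, on opposite strands, are similar in composition. That of Maob had 63.0% G and C with 19 CpG and 2 GC boxes, and that of Maoa had 61.0% with 13 CpG and 4 GC boxes. Each held 1 CCAAT box, that of Maoa after the start of the gene.
Maob promoter, chrX:8490155-8490454, plus strand: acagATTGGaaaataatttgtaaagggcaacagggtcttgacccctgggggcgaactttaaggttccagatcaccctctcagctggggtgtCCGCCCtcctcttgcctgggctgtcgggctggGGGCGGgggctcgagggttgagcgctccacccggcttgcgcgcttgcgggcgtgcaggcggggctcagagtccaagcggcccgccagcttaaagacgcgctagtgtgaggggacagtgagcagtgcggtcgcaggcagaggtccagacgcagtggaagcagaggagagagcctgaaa
Maoa promoter, chrX:8681323-8681622, minus strand: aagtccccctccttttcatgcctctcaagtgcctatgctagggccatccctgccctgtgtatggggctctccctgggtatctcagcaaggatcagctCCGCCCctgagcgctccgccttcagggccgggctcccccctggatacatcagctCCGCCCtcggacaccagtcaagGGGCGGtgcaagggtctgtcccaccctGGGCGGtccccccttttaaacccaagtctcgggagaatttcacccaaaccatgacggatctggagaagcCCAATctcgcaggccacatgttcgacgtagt

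Around the monoamine oxidases, genes that make, carry or break down amines went both ways. Of 21 listed, 19 were measured by a named probe set. Over 2-fold higher were 2 and under 0.5-fold were 2, and the median was 0.01, at -0.18 to 0.13 with the 4 other scalings. Only 4 of the 19 were above background, and these were Aoc3, Slc22a2, Akr1b1 and Aldh2. Aoc3, the copper amine oxidase of vascular smooth muscle and endothelium, also called vascular adhesion protein, forms hydrogen peroxide from primary amines. It had 15415 after ligation and 38008 after sham surgery, 2.47-fold lower and opposite in sign to both monoamine oxidases. Slc22a2, an organic cation transporter that takes up monoamines, had 3075 after ligation and 1258 after sham surgery, 2.44-fold higher. Akr1b1, the aldose reductase that also reduces the aldehyde formed from noradrenaline, had 13830 after ligation and 8061 after sham surgery (0.78). Aldh2, which oxidizes such aldehydes, had 2001 after ligation and 2287 after sham surgery (-0.19). Th and Dbh, which make noradrenaline in sympathetic nerves, were within background on both arrays, with differences of 0.01 and -0.18, and stand in the nerve markers as well. Tph1 and Tph2, the others past 2-fold, were within background on both arrays as well.

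Aox1 and Xdh, which share the molybdenum cofactor and a common ancestry, had differences of opposite sign. Aox1, which oxidizes aldehydes and many heterocycles and forms hydrogen peroxide and superoxide, had a signal of 259 after ligation and 118 after sham surgery. Its fold was 2.20 (log2 difference 1.14). The Sham signal was within background, brighter than 17 of the 23 antigenomic sets, while the Ligation signal was above all 23. When the median antigenomic signal was subtracted the Sham value was at the floor of 16 and the fold became 9.35, and with 64 added to each signal it was 1.78. Xdh, known from capillary endothelium, had 195 after ligation and 237 after sham surgery, a log2 difference of -0.28. Both Xdh signals were above background, and 27.6% of named genes had a smaller difference. Genes of the cofactor, of the other molybdenum enzymes and of purine breakdown had none past 2-fold among 14 of 19 with a named probe set, and their median was 0.31. It was 0.60 over the 10 above background on at least 1 array, with Suox counted there through the Ligation array alone, where it was higher. Among them, Nt5e, the ectoenzyme that makes adenosine from AMP, had 320 after ligation and 181 after sham surgery (0.82). Ampd3, which deaminates AMP, had 844 after ligation and 463 after sham surgery (0.87). Mocs2, which builds the cofactor, had 1227 after ligation and 971 after sham surgery (0.34), and Gphn, which inserts the molybdenum, had 236 after ligation and 255 after sham surgery (-0.11).

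The plot of related lists sets the 10 genes beside other enzymes that form or remove peroxide. Of 19 further oxidases that form hydrogen peroxide, 16 had a named probe set and 1 was over 2-fold higher. This was Loxl2, a lysyl oxidase that cross-links collagen and elastin, with 1353 after ligation and 288 after sham surgery, 4.70-fold higher. The related Loxl1 had 9956 after ligation and 6737 after sham surgery (0.56), and Loxl3 had 180 after ligation and 230 after sham surgery (-0.35). The median of the 16 was -0.13, between -0.32 and 0.00 with the 4 other scalings. Dim genes weighed on this sign, since 8 of the 16 were within background on both arrays. The median of the 8 above it on at least 1 array was 0.62. Qsox1 was among these 8 through the Ligation array alone, where it was higher, a condition that favours a higher median. The 13 enzymes that remove superoxide or peroxide were all above background on at least 1 array, Prdx4 in the Ligation array alone. Of the 13, 2 were over 2-fold higher and the median was 0.31. These were Prdx6, a peroxiredoxin that also acts on oxidized lipids, with 8903 after ligation and 4136 after sham surgery, and Cat, the catalase of peroxisomes, with 13328 after ligation and 6617 after sham surgery. With quantile, housekeeping or lowess scaling neither was over 2-fold higher. Sod3, the superoxide dismutase of the arterial matrix, had 272027 after ligation and 250637 after sham surgery (0.12). Enzymes that supply NADPH, the electron donor of the Nox enzymes, had a median of -0.44 over 6 of 9 genes. Idh2, which makes NADPH in mitochondria, had 2995 after ligation and 6013 after sham surgery, 2.01-fold lower, and Nnt, which does so in the same compartment, had 2265 after ligation and 3301 after sham surgery (-0.54). The cytosolic Idh1 had 6077 after ligation and 5209 after sham surgery (0.22).

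**Figure D3:**
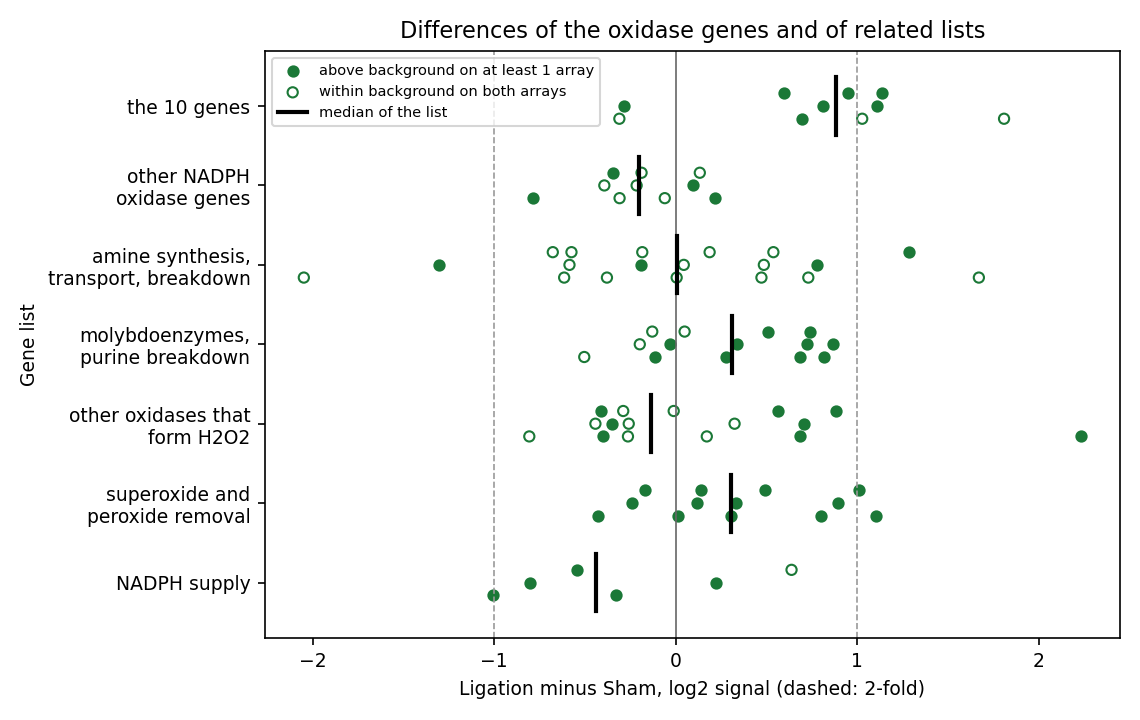
Log2 signal of Ligation minus Sham for each gene (points) of the 10 oxidase genes and of the 6 related lists, with the median of each list as a bar. Filled points are above background on at least 1 array, open points within it on both, and dashed lines mark 2-fold. The median of the 10 genes is 0.88 and the 6 other medians reach from -0.44 to 0.31, while over the filled points alone the medians are 0.81 for the oxidase genes, 0.62 for the other oxidases that form peroxide and 0.60 for the molybdenum and purine genes. Among these filled points, Aox1, Qsox1 and Suox are above background in the Ligation array alone, where they were higher, which favours higher medians.

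Several of the 10 genes are known from particular cells, and markers of those cells differed between the same arrays. All 16 markers of macrophages and microglia were above 0, 7 were over 2-fold higher, and their median was 0.92, where the 4 phagocyte oxidase genes had a median of 0.88. The summed signal of the 16 was 143265 after ligation and 61879 after sham surgery, of which Fcer1g alone made 61965 and 20613. Tyrobp, an adaptor of myeloid receptors, was 3.42-fold higher, and the receptor chain Fcer1g and the mannose receptor Mrc1 both had a log2 difference of 1.59. Ptprc, the marker CD45 of all leukocytes, had 4070 after ligation and 3105 after sham surgery (0.39). Spi1, the myeloid factor that binds PU boxes, had 98.0 after ligation and 63.8 after sham surgery, within background. All 7 neutrophil markers with a named probe set were within background on both arrays, S100a8 and Elane among them, with a median of 0.14 that was -0.05 after centring on housekeeping genes, and a summed signal of 361 after ligation and 287 after sham surgery. The part of macrophages in the differences of Cybb, Cyba, Ncf1 and Ncf4 was not tested.

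Astrocyte markers, to be set beside Maob, were above 0 in 9 of 9, with 6 over 2-fold higher and a median of 1.23. Their summed signal was 326761 after ligation and 205429 after sham surgery, of which Gjb6 alone made 234092 and 159201. Aqp4 and Gfap were 17.3-fold and 15.6-fold higher, and S100b was 3.55-fold higher. Markers of oligodendrocytes and Schwann cells were above 0 in 8 of 8, with 6 over 2-fold and a median of 1.77. Their sum was 36770 after ligation and 18977 after sham surgery, of which Cldn11 alone made 20287 and 16630. The myelin genes Mbp and Mobp were 13.6-fold and 11.9-fold higher. Mag, another myelin gene, had 261 after ligation and 65.3 after sham surgery, the Sham signal within background. The part of glia in the difference of Maob was not tested. Endothelial markers, to be set beside Nox4 and Xdh, were above 0 in 11 of 11, with 6 over 2-fold, a median of 1.21, and a sum of 175239 after ligation and 96034 after sham surgery. After centring on housekeeping genes 10 of the 11 were above 0. Vwf was 6.85-fold higher and Flt1 was 4.75-fold higher. Emcn had 281 after ligation and 63.6 after sham surgery, the Sham signal within background. Smooth muscle markers were below 0 in 12 of 12, with 8 under 0.5-fold, a median of -1.38, and a sum of 2000173 after ligation and 2993042 after sham surgery. Smtn was 4.83-fold lower, Ldb3 4.42-fold and Myocd 3.81-fold. All 12 were above background on both arrays, so the labelled tissue had its defining contractile genes in both pools. Nox4, within background on both arrays, was higher after ligation, as were endothelial markers and the median of fibroblast and leptomeningeal markers (0.53), while smooth muscle markers were lower. Xdh was lower and endothelial markers higher, and Aoc3 was lower, as were the smooth muscle markers. With a single difference per gene, a shared or opposite direction cannot tie a gene to a cell type. The signs of all macrophage, astrocyte, oligodendrocyte and smooth muscle markers were the same with each of the 4 other scalings. The part of each cell type in these values was not tested.

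**Figure D4:**
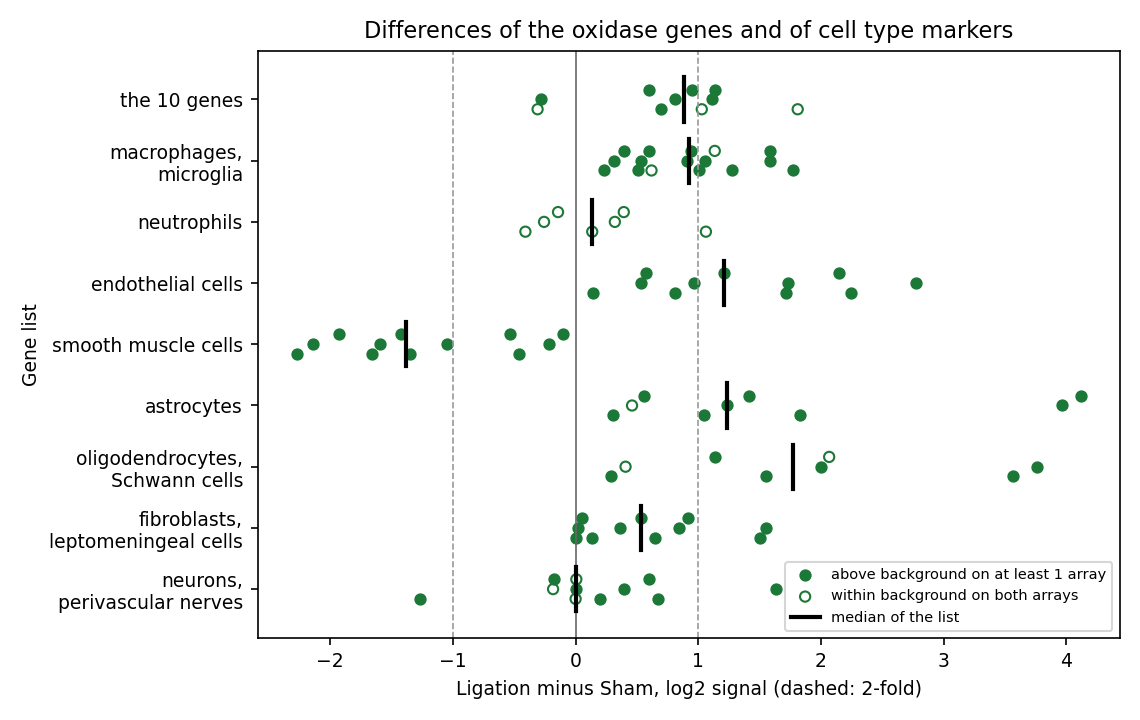
Log2 signal of Ligation minus Sham for each gene (points) of the 10 oxidase genes and of the 8 marker lists, with the median of each list as a bar. Filled points are above background on at least 1 array, open points within it on both, and dashed lines mark 2-fold. Markers of macrophages, endothelial cells, astrocytes, and oligodendrocytes and Schwann cells have medians between 0.92 and 1.77, and smooth muscle markers have a median of -1.38.

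The share of genes past 2-fold depended on the level. Of the 7751 named genes above background on at least 1 array, 6.19% were past 2-fold upward and 3.5% past 2-fold downward. Of the 7286 within it on both arrays, 1.74% were past 2-fold upward and 2.42% past it downward. Among the 10 oxidase genes, 7 were above background on at least 1 array, of which Maob and Aox1 were over 2-fold higher, and Aox1 met this condition in the Ligation array alone. Nox4 and Ncf4 were among the 3 within it on both arrays. The plot of differences under each scaling shows which of these values moved. Over the 7 other ways of scaling or summarizing the values, Maob ranged from 1.90-fold to 2.29-fold, Cyba from 1.70-fold to 2.12-fold, Maoa from 1.42-fold to 1.65-fold, and Cybb from 1.33-fold to 1.52-fold. Ncf1 ranged from 1.54-fold to 2.15-fold. Nox4 ranged from just under 2-fold to 3.60-fold and Aox1 from 1.78-fold to 9.35-fold. Ncf4 ranged from 1.00-fold, where both signals were at the floor, to 2.26-fold. Nox1 and Xdh were not above 0 in any of these, at 0.71-fold to 1.00-fold and 0.67-fold to 0.86-fold.

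**Figure D5:**
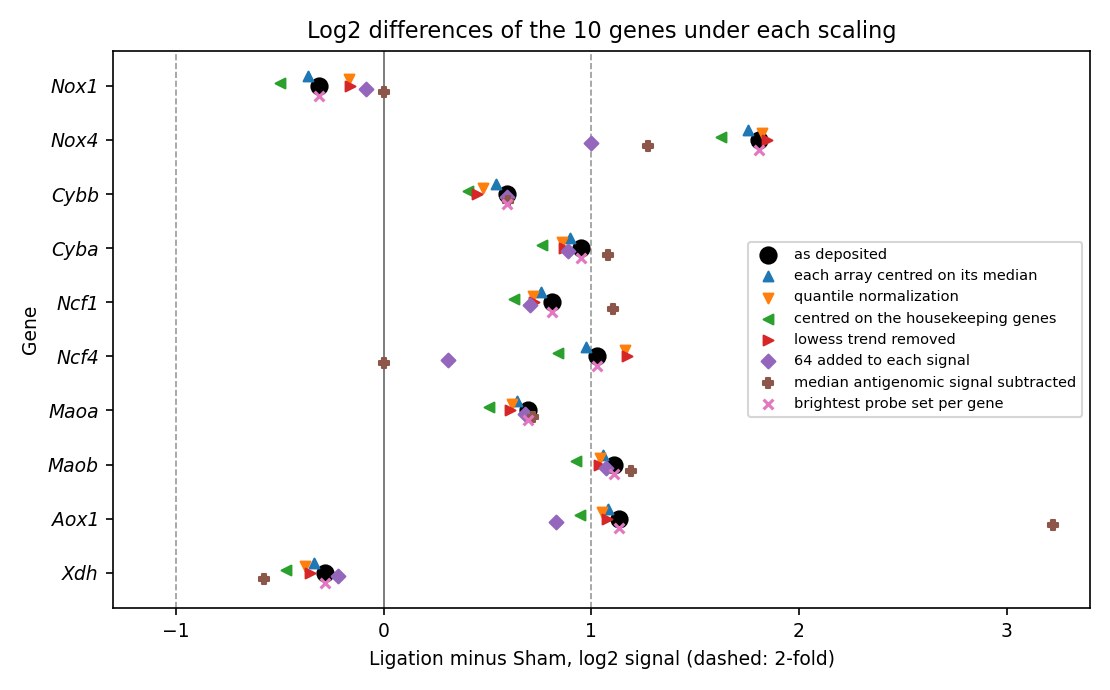
Log2 signal of Ligation minus Sham for the 10 genes, as deposited (large black points) and under 7 alternatives (small symbols, named in the legend), with dashed lines at 2-fold. The values of Cybb, Maoa and Maob stay close together, and those of Nox4, Ncf4 and Aox1, which have a signal within background on at least 1 array, are spread widely.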

How the data were processed

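The authors deposited 1 linear signal intensity per probe set and array. The submitters' processing notes name RMA and Affymetrix Expression Console, and the study's methods a data analysis tool of Filgen. The tool versions in the notes and the genome build are not given in the sources used here, and neither is the step that returned RMA values to a linear scale. Names of 15049 of 23188 gene probe sets came from the platform annotation and were updated by Entrez identifier against GRCr8, and all 15049 matched. A log2 difference is Ligation minus Sham of the log2 intensity, averaged over the probe sets of a gene, without further scaling, and the thresholds are 2-fold and 0.5-fold. With 1 array per group there is no p-value and no SD, and precision is limited by that number.

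The 10 genes, the 6 pathway lists and the 8 marker lists were chosen with earlier results of these data known. All 10 genes are named. Of each list, up to 3 genes past 2-fold in each direction above background are named, or the largest difference each way where none passed, and further ones were chosen after their values were seen. The fold calculation was tested on simulated data, as deposited and with median, quantile and lowess scaling, with the same noise at every signal level. A shift by the housekeeping genes, the addition of 64 and the antigenomic subtraction were not tested in this way. Alternatives were centring on the median of each array or of the housekeeping genes, quantile normalization, a lowess trend (fraction 0.3), 64 added to each signal, the median antigenomic signal subtracted (floor 16), the brightest probe set per gene, floors on low signals and thresholds of 1.5-fold and 3-fold. Values were computed in Python 3.11.15 with pandas 2.3.3 and numpy 2.4.6, the lowess trend with statsmodels 0.14.6, and figures were drawn with matplotlib 3.10.9.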

Additional observations from a re-analysis of the deposited data

How the results depend on the processing

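Of the 10 genes, 4 were over 2-fold higher as deposited. This count was 1 (Nox4) after centring on housekeeping genes, 1 (Maob) with 64 added to each signal, 2 with genes above the brightest antigenomic probe set alone, 8 at a threshold of 1.5-fold and 1 at a threshold of 3-fold. Under the other alternatives it was between 3 and 5, and no gene was under 0.5-fold in any of them. With all 10 genes kept, the median difference lay between 0.69 and 0.90. It was 0.95 over only those above the antigenomic probe sets of 8 to 18 bases, which left out Nox1. Single genes moved by over 0.44, the SD of the differences across the housekeeping genes, in 5 cases, namely Nox4 (0.997) and Ncf4 (0.31) with 64 added, and Nox4 (1.27), Ncf4 (0.00) and Aox1 (3.23) with the antigenomic median subtracted. The brightest probe set per gene could move none, since each gene had 1. Centring on the housekeeping genes moved the median of all named genes to -0.20 and the counts over all named genes to 368 higher and 777 lower, which put 32.1% of calls on the higher side, where the deposited values gave 607 and 447 (57.6%). With 64 added they were 338 and 211, with the antigenomic median subtracted 1106 and 618, at 1.5-fold 1866 and 1629, and at 3-fold 147 and 91. The floor set by the antigenomic probe sets of 8 to 18 bases was chosen after seeing the data, and it left 4 of the 10 genes over 2-fold. A gene was kept if it passed this floor on either array. Nox4 and Ncf4 passed it in the Ligation array alone, where they were higher. Their place among the 4, and the median of 0.95, therefore depend on that condition and are no added support. Signals within background limit Nox1, Nox4, Ncf4 and the Sham value of Aox1.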

Other observations

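Fibroblast and leptomeningeal markers, of cells in which Nox4 and Maoa are also known, were above 0 in 11 of 11 with a named probe set, and 2 were over 2-fold higher. With the 4 other scalings between 7 and 9 of the 11 were above 0. Their median was 0.53, and their summed signal was 2367476 after ligation and 1861080 after sham surgery. Igf2, a growth factor of the meninges, was 2.93-fold higher, and Slc22a6, an organic anion transporter, was 2.83-fold higher. Pdgfra, a receptor that marks fibroblasts, had 44460 after ligation and 40443 after sham surgery (0.14).

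Markers of neurons and perivascular nerves had a median of 0.01 over 11 genes, at -0.18 to 0.13 with the 4 other scalings, with a summed signal of 5588 after ligation and 5240 after sham surgery. Npy, a cotransmitter of sympathetic nerves, had 275 after ligation and 660 after sham surgery, 2.40-fold lower, and Uchl1, a neuronal ubiquitin hydrolase, had 433 after ligation and 140 after sham surgery, the Sham signal within background. Snap25, a protein of synaptic release, had 2964 after ligation and 2961 after sham surgery.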
